A study of Mus musculus with 18 samples.

Results

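The interferon-stimulated genes described here are 36 mouse genes that cells switch on when interferon reaches them. They were chosen by name and not by a rule on measured values, though earlier results of these data were known. Their rows are those of the count table whose Ensembl identifiers map to these symbols in GENCODE M21. All 36 were found, each once, among 55414 gene identifiers, and all 36 passed the filter on low counts in each comparison.

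RNA was sequenced from 18 libraries of wild-type C57BL/6J mice that breathed filtered air or PM2.5, fine particles from ambient air, for 30 days. In the first experiment the material was the whole spleen, with 4 air libraries and 4 PM2.5 libraries. In the second it was macrophages isolated from the spleen, with 5 air and 5 PM2.5 libraries, and the design text adds a period of filtered air after the exposure, whose length the labels do not give. Titles call the exposed libraries CAP. No group carries a transgene or deletion, and age and sex are not stated in the labels used here. Macrophage PM2.5 library 1 is tagged as air in its treatment field, against its title and description; it was grouped by title, and was also counted as air or left out. Libraries are labelled as biological replicates and nothing else says which animals they came from, so p-values measure the spread between these libraries.

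Interferons are secreted when sensors inside a cell recognise foreign or misplaced nucleic acid. They bind receptors on the same and neighbouring cells, the receptor's kinases activate a complex of transcription factors that includes IRF9, and this complex binds a short DNA element, the interferon-stimulated response element (ISRE), in front of its target genes. The products of those genes sense RNA, stop translation, cut RNA, deplete or alter nucleotides, hold back virus particles and call in T cells. Macrophages of the spleen filter blood, clear old red cells and can both make and answer interferon, and many of these genes have a resting level without infection.

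The ISRE sequences carried by the members are shown first for 4 genes on which the results below turn. RefSeq windows on build GRCm38.p6, from 250 bases before to 50 after a start site, held 27 of the 36 members. The ISRE core (GAAA, any 2 bases, GAAA, or on the other strand TTTC, any 2 bases, TTTC) occurred in the windows of 16 of these 27 members (59.3%), and in 3.99% of the 27025 genes with a window. The core of the gamma-activated site, TTCNNNGAA, reads the same on both strands and occurred in 7 of 27 members (25.9%) and in 9.55% of all genes with a window. Of all 32851 windows, 3.44% and 8.3% held these motifs. Both occurred in 4 members, Bst2, Eif2ak2, Gbp7 and Oas1a, and in Bst2 the letters of the different motifs overlap. The 250 bases before the start are printed 5' to 3' on the gene's own strand, with the ISRE letters in capitals. Rsad2 (chr12:26456453-26456702, minus strand) and Isg20 (chr7:78913174-78913423, plus strand) had the widest fold changes in spleen, the first with 1 match and the other with none. Ifit3 (chr19:34583279-34583528, plus strand) and Ifit3b (chr19:34607707-34607956, plus strand) are near-copies whose stretches hold 2 matches each and share 73.9% of the 12-base words of Ifit3.
Rsad2: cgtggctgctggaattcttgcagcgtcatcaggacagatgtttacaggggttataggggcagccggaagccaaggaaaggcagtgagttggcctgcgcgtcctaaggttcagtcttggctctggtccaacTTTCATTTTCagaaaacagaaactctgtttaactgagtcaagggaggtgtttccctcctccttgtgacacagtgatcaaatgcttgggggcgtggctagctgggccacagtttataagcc
Isg20: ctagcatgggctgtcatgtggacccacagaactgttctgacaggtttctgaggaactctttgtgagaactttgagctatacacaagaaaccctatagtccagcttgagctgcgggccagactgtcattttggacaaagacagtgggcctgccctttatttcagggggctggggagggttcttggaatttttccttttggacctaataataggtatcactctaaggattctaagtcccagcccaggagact
Ifit3: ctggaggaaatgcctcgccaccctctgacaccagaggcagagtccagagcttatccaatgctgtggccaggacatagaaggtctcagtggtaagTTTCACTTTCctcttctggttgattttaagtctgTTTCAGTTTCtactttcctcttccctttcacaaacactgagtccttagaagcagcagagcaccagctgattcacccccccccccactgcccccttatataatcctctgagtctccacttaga
Ifit3b: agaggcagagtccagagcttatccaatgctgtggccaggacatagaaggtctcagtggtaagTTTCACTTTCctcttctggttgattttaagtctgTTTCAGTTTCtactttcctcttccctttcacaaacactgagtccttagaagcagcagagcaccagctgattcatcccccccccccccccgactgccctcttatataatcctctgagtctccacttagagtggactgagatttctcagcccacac
A match is a run of letters and not a measured binding site. The other members with a match were Bst2, Cxcl10, Ddx58, Eif2ak2, Gbp2, Gbp3, Gbp7, Ifih1, Ifit1, Isg15, Oas1a, Oas3 and Stat2.

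Libraries held 16493694 to 20352346 counts in spleen air, 18427891 to 19906706 in spleen PM2.5, 18107264 to 29013034 in macrophage air and 18848048 to 33844807 in macrophage PM2.5, of which the members together took 23188 to 60742. Levels are given as CPM, counts scaled to the library's size, on a scale normalised across all 18 libraries, with SD, in the order of the replicate numbers. The labelled material carried its markers: the summed level of 10 red pulp macrophage markers was 16591 to 23257 CPM in macrophage air and 274.5 to 584 CPM in spleen air. The macrophage preparations also held transcripts of other cells, with 2104 to 3403 CPM over 7 B cell markers and 2674 to 9166 CPM over 10 erythroid markers in the air libraries. Spleen air libraries 3 and 4 carried liver transcripts, and values of the members without them are given where they moved most.

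Per length of transcript, in reads per kilobase on the CPM scale, the members spanned a wide range. Ifi27l2a, a small membrane protein gene, had the highest mean level in every group, 233 in spleen air and 151 in macrophage air. Bst2, whose product tetherin ties budding virus to the cell, came second in both, at 130.2 and 69.4. Ifi44 was lowest in every group, at 0.285 in spleen air and 1.05 in macrophage air. Ifi35, Trim25, Irf9, Isg15 and Gbp2 followed Bst2 in spleen air with 42.3, 26.4, 22.2, 21.2 and 20.6 on this scale. Every member was read in every air library. The plot of all members by library shows how each library sat against the air mean of its own material.

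**Figure D1:**
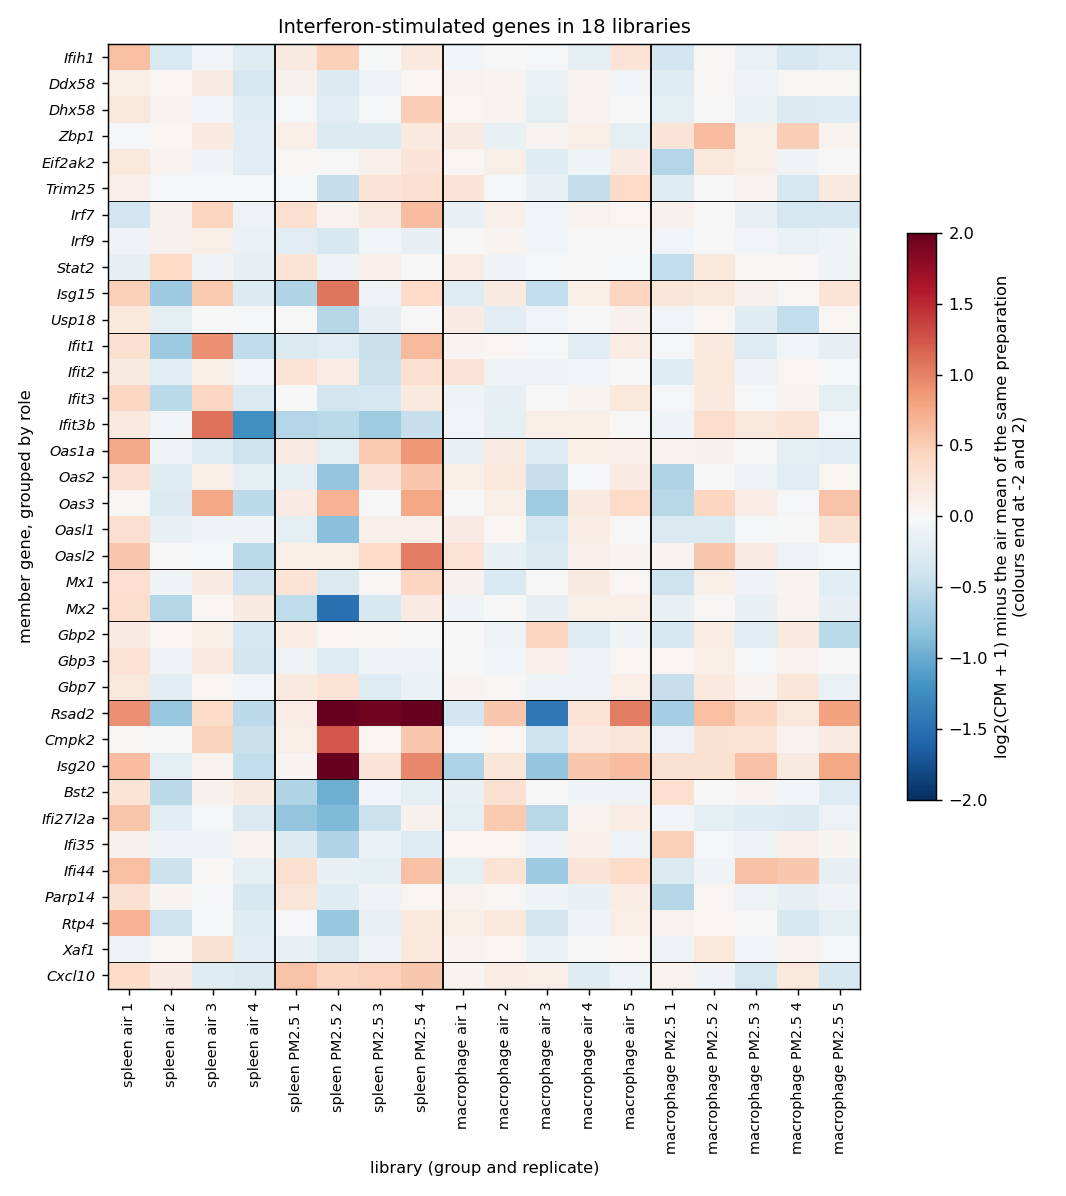
Each row is a member, grouped by role, and each column 1 of the 18 libraries; colour is log2(CPM + 1) minus the mean of the air libraries of the same material, with colours ending at -2 and 2. Rsad2 reaches the end of the colours in spleen PM2.5 libraries 2 and 4 and comes close to it in library 3. Isg20 reaches it in spleen PM2.5 library 2, and most other cells are pale.

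The first comparison asked how the members differed in whole spleen after 30 days of PM2.5. No member passed the threshold of an adjusted p of 0.05 (edgeR quasi-likelihood test, Benjamini-Hochberg over all genes, two-sided), where 0.0121% of the 16551 genes tested did. At an unadjusted p under 0.05 there were 3 members higher, Rsad2, Isg20 and Cxcl10, and 1 lower, Ifi35, where 16.7% of all genes were under it. On the log2 scale 20 members were higher and 16 lower, with a median fold change of 0.04 beside 0.02 over all genes tested. This direction was not stable: the median ran from -0.06 (without PM2.5 library 4, 15 higher and 21 lower) to 0.09 (without air library 1) when each library was left out, was also below 0 without air 2, air 4, PM2.5 1, or PM2.5 2 and 4 together, and was -0.03 (14 higher and 22 lower) without both air libraries with liver transcripts. In 19 of the 36 members the sign turned in at least 1 of 19 alternatives. Groups did not overlap in 2 members, beside 8.98% of all genes. In 24 of 36 members the 95% interval of the fold change lay within 2-fold in either direction, as it did for 59.9% of all genes. DESeq2 called 1 member, Rsad2, and limma-voom called none. In whole spleen, fewer cells of a type and less RNA per cell cannot be told apart.

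Rsad2 encodes viperin, an enzyme that turns the nucleotide CTP into a form that stops viral RNA chains. The spleen air libraries had 12, 3.12, 7.94 and 3.84 CPM. The spleen PM2.5 libraries had 6.68, 113, 25.5 and 51.4 CPM. PM2.5 libraries 2, 3 and 4 lay above every air library, library 1 lay inside the air range, and the groups overlapped. The means were 6.74 ± 4.12 and 49.2 ± 46.5 CPM (SD, n = 4 each), a log2 fold change of 2.88 (SE 0.73, 95% interval 1.28 to 4.49, edgeR adjusted p = 0.126). This was the widest difference among the members. It passed the threshold with DESeq2 (adjusted p = 0.0208), with no filter on low counts (0.00685), in the joint fit of all 18 libraries (0.0217) and without spleen PM2.5 library 1 (0.0321), and over all alternatives the adjusted p ran from 0.00685 to 0.689. Without PM2.5 library 2 the log2 fold change was 2.08, and without PM2.5 libraries 2 and 4 it was 1.29.

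Isg20, an exoribonuclease that degrades single-stranded RNA, had a similar order of libraries. Spleen air libraries had 22, 12.2, 14.8 and 9.72 CPM. Spleen PM2.5 libraries had 14.7, 80.4, 16.9 and 28.2 CPM. Library 2 stood far above the rest and the other 3 PM2.5 libraries lay in or just above the air range, so the groups overlapped. The log2 fold change was 1.27 (SE 0.50, edgeR adjusted p = 0.241). Without PM2.5 library 2 it was 0.47. Cmpk2, a mitochondrial nucleotide kinase and the neighbour of Rsad2 on chromosome 12, on the opposite strand, was named after its values were seen. It had 15.6, 15.3, 21.2 and 11 CPM in spleen air and 16.9, 37.8, 15.9 and 22.9 CPM in spleen PM2.5, again highest in PM2.5 library 2 and overlapping between the groups (log2 fold change 0.57, edgeR adjusted p = 0.364). All 3 members of this group of nucleotide and RNA enzymes were higher on average in PM2.5 and none passed the test.

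Cxcl10, the only chemokine among the members, draws T cells and NK cells through the receptor CXCR3. Its spleen air libraries had 13.4, 11.4, 8.37 and 8.13 CPM and its PM2.5 libraries 15.4, 14, 14.3 and 15.1 CPM. All 4 PM2.5 libraries lay above all 4 air libraries, by a narrow gap at air library 1. The log2 fold change was 0.51 (SE 0.197, edgeR adjusted p = 0.229). Without air libraries 3 and 4, the pair with liver transcripts and the lowest Cxcl10, it was 0.25. Ifi35, which pairs with the protein NMI and acts in innate signalling, was the only member with groups apart in the other direction. It had 77.5, 69.6, 68.6 and 76.7 CPM in air and 60.3, 47.7, 66.2 and 61.1 CPM in PM2.5, all 4 of the latter below all 4 of the former. The log2 fold change was -0.32 (SE 0.12, edgeR adjusted p = 0.221). Groups did not overlap in 4.31% of all genes in the higher and 4.66% in the lower direction, and in 1 of 36 members each way, close to those shares. Cxcl10 shares exon bases with Art3 and Ifi35 with Gm11626 on the opposite strand, and the strand setting of the counting is not given in the sources used here.

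Both named membrane proteins were lower on average after PM2.5. Bst2 had 139, 79.4, 122 and 130.2 CPM in spleen air and 75.6, 57.8, 110.3 and 101 CPM in spleen PM2.5. PM2.5 libraries 1 and 2 were below all air libraries and libraries 3 and 4 were inside their range (log2 fold change -0.45, SE 0.216, edgeR adjusted p = 0.322). Ifi27l2a had 154, 88.9, 102 and 85.7 CPM in air and 60.4, 56.6, 77.7 and 111 CPM in PM2.5. PM2.5 libraries 1 to 3 were below every air library, library 4 was above 3 of them, and the fold change did not pass the test (log2 -0.50, SE 0.234, edgeR adjusted p = 0.313). Bst2 also marks plasmacytoid dendritic cells, the main source of type I interferon. The 10 markers listed for these cells summed to 1012 to 1148 CPM in spleen air and 708 to 989 CPM in spleen PM2.5, with none at 0. Of them 4 were higher and 6 lower after PM2.5 (median on the log2 scale -0.01). A sum is weighted to the most abundant markers, so the lower sums alone do not show a loss of these cells. Siglech, the surface lectin of these cells, had 32.5, 23.9, 47.5 and 31.8 CPM in air and 34.2, 30.8, 33.1 and 36.4 CPM in PM2.5. The part of these cells in the level of Bst2 was not tested.

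Ifit3b, which binds viral RNA together with its relatives, had the widest spread within spleen air, with 4.33, 3.46, 8.89 and 0.988 CPM. Spleen PM2.5 libraries had 2.09, 2.21, 1.84 and 2.38 CPM. Air library 3 was the highest and air library 4 the lowest of all 8, with the PM2.5 libraries between them. The log2 fold change was -1.05 (SE 0.516, edgeR adjusted p = 0.337) and was -0.45 without air library 3. Its near-copy Ifit3 had 23.8, 11.8, 23.7 and 14.2 CPM in air and 17.4, 13.4, 13.8 and 20.2 CPM in PM2.5, overlapping (log2 fold change -0.18). Of the 50-base words of Ifit3b, 44.5% also occur in Ifit3 and reads from them could have been split or dropped by the authors' counting, so both values are uncertain. Ifit1 and Ifit2 of the same family had log2 fold changes of -0.17 and 0.11.

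The remaining members gave smaller differences in spleen, and none passed the test. The 6 sensors, which recognise foreign RNA or DNA or relay its recognition, lay between -0.07 for Ddx58 (RIG-I) and 0.18 for Ifih1 (MDA5) on the log2 scale, and the interval of each lay within 2-fold. The 3 transcription factors also stayed within 2-fold, from -0.20 for Irf9 to 0.28 for Irf7, the main activator of type I interferon genes. Isg15, a ubiquitin-like protein joined to newly made proteins, had 0.24 with an interval of -0.61 to 1.10, turning to -0.13 without PM2.5 library 2 and -0.42 without PM2.5 libraries 2 and 4, and Usp18, which removes it, -0.18. Of the 5 oligoadenylate synthetase genes, whose products sense double-stranded RNA, 4 were higher and 1 lower, from -0.18 for Oasl1 to 0.43 for Oasl2. The Mx genes encode GTPases that trap viral nucleoproteins in mice with working copies, but C57BL/6 mice are known to carry defective copies of both and the annotation lists Mx2 as a polymorphic pseudogene; they had 0.11 for Mx1 and -0.55 for Mx2, and the 3 guanylate-binding proteins, which attack the compartments of intracellular pathogens, lay between -0.16 and 0.04. Among the other effectors Ifi44, Parp14, Rtp4 and Xaf1 had 0.19, -0.02, -0.23 and -0.09. The intervals of Isg15, Ifit1, Ifit3b, Oas1a, Oas3, Oasl2, Mx2, Rsad2, Cmpk2, Isg20, Ifi27l2a and Ifi44 reached past a 2-fold change, and the spread left a change of that size within them with 4 libraries a group.

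**Figure D2:**
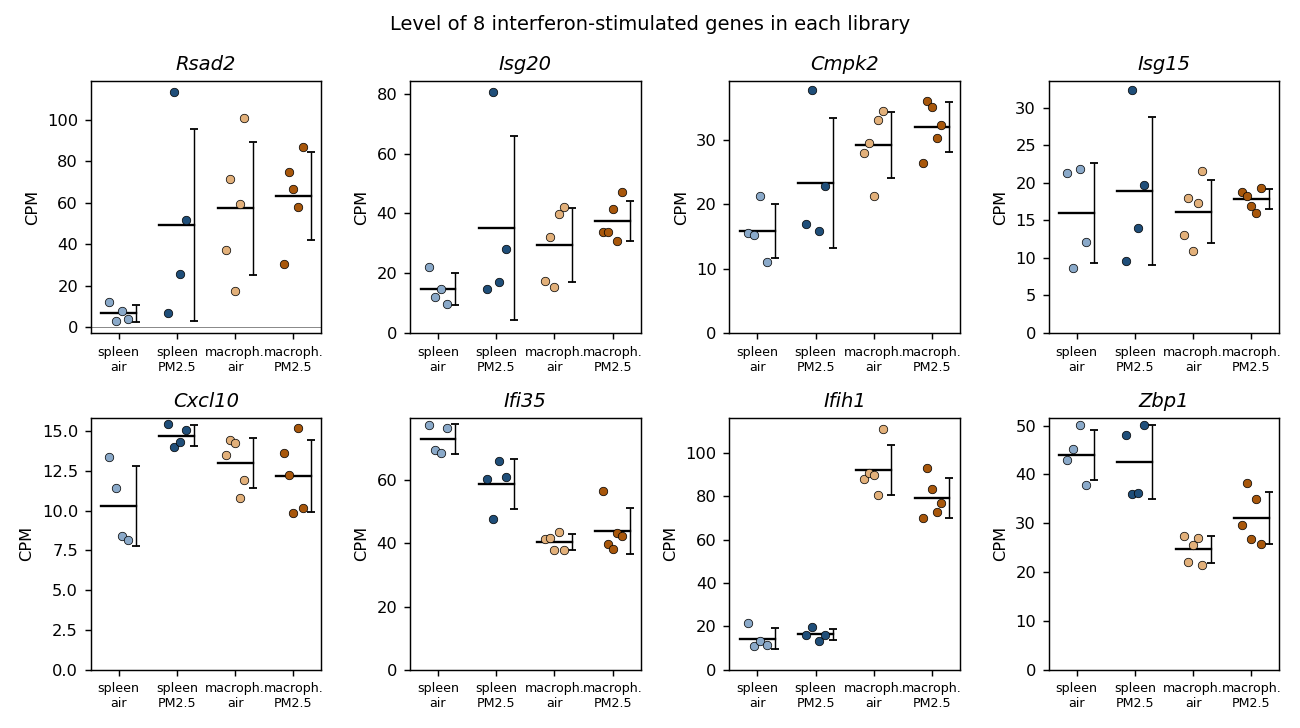
CPM of 8 members in each library (points), with group means (horizontal bars) and SD (error bars), for spleen air, spleen PM2.5, macrophage air and macrophage PM2.5. Spleen PM2.5 library 2 is the highest spleen library for Rsad2, Isg20, Cmpk2 and Isg15; the spleen groups are apart for Cxcl10 and Ifi35, and Ifih1 is higher in every macrophage library than in any spleen library.

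Markers of red cell precursors moved with the spleen libraries in which Rsad2 and Isg20 were high. All 10 erythroid markers had higher means in the PM2.5 libraries (median on the log2 scale 3.68), and none was at 0. They summed to 322 to 3215 CPM in spleen air and 922 to 15764 CPM in spleen PM2.5. All 10 red pulp macrophage markers were higher too, with sums of 274.5 to 584 CPM and 470 to 745 CPM, 7 of 8 T cell markers were lower (978 to 1373 CPM and 761 to 978 CPM), and 7 of 7 B cell markers were lower (5153 to 6054 CPM and 3799 to 5076 CPM). All 6 mesothelial markers were higher with groups apart (median on the log2 scale 4.89), with sums of 2.75 to 5.29 CPM and 37.5 to 217 CPM. Means were also higher for 5 of 6 NK cell markers, 5 of 6 tested neutrophil markers, 4 of 5 endothelial markers and 6 of 7 dendritic cell markers. None of the markers in these lists passed the adjusted threshold. Within groups, the level of Rsad2 followed the mean of the erythroid markers across the 8 spleen libraries (Pearson r of deviations from group means 0.936, Spearman rho 0.905, exact permutation p = 0.00521, adjusted over 72 relations 0.0625; r = 0.829 without PM2.5 libraries 2 and 4). Isg20 had r = 0.846 and rho = 0.738 (exact permutation p = 0.0365, adjusted 0.239), falling to 0.662 without the same libraries. Isg15 had r = 0.798 and rho = 0.762 (exact permutation p = 0.033, adjusted 0.237), falling to 0.554. The other members reached r over 0.5 only for Ifih1 and Cmpk2. Stat2 ran the other way, with r = -0.675 and rho = -0.81 (exact permutation p = 0.0451, adjusted 0.271), and -0.571 without the same libraries. It was the only member with r under -0.5. The part of these cells in the members' levels was not tested. Without PM2.5 libraries 2 and 4, those with the most erythroid transcripts, the log2 fold changes of Rsad2, Isg20, Cmpk2 and Isg15 were 1.29, 0.13, 0.07 and -0.42.

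In macrophages isolated from the spleen, no member passed the threshold and no member had groups apart (edgeR quasi-likelihood test, Benjamini-Hochberg), where 0% of the 15696 genes tested passed and 2.24% had groups apart, 1.38% higher and 0.86% lower. DESeq2, limma-voom and every other alternative called no member either, while DESeq2 called 175 genes in all. At an unadjusted p under 0.05 there was 1 member, Zbp1, where 10.9% of all genes were under it. On the log2 scale 14 members were higher and 22 lower, with a median of -0.05 beside 0.01 over all genes. The fold changes ran from -0.22 for Ifi27l2a to 0.36 for Isg20. In 35 of the 36 members the 95% interval lay within 2-fold, the exception being Rsad2, as it did for 86.5% of all genes.

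Zbp1, a sensor of left-handed nucleic acid that can start necroptosis, had 27.5, 22, 25.5, 26.9 and 21.4 CPM in macrophage air. Macrophage PM2.5 libraries had 29.7, 38.2, 26.7, 34.9 and 25.7 CPM. PM2.5 libraries 1, 2 and 4 were above every air library, libraries 3 and 5 were within their range, and the log2 fold change was 0.33 (SE 0.125, edgeR adjusted p = 0.381). The other sensors pointed the other way on average without passing the test. Ifih1 had 87.9, 90.7, 90, 80.5 and 111 CPM in air and 69.8, 92.8, 83.4, 72.8 and 76.7 CPM in PM2.5, where PM2.5 libraries 1, 4 and 5 were below every air library and libraries 2 and 3 were not (log2 fold change -0.21, SE 0.099, edgeR adjusted p = 0.468). Dhx58 (LGP2), a helicase that tunes the RNA sensors, had 43.7, 44.2, 37.1, 44.3 and 42.6 CPM in air and 36.9, 42.4, 38.6, 34.8 and 35.2 CPM in PM2.5. Air library 3 sat among the PM2.5 libraries and the other 4 air libraries were above all PM2.5 libraries (log2 fold change -0.17, SE 0.0789, edgeR adjusted p = 0.472). Ddx58, Eif2ak2 and Trim25 had -0.05, -0.04 and -0.08 on the log2 scale.

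Irf7 had 88.6, 105, 94.2, 103 and 101 CPM in macrophage air and 104, 97.2, 88.4, 76.9 and 77.5 CPM in macrophage PM2.5. PM2.5 libraries 4 and 5 were lowest and the groups overlapped (log2 fold change -0.14, SE 0.0941, edgeR adjusted p = 0.609). Parp14, an ADP-ribosyltransferase of macrophage signalling, had 243, 237, 219, 208 and 256 CPM in air and 155, 238, 216, 208 and 220.2 CPM in PM2.5, with PM2.5 library 1 far below the other 9 (log2 fold change -0.16, SE 0.107, edgeR adjusted p = 0.611). Ifit3b had 8.17, 7.31, 9.45, 9.36 and 8.6 CPM in air and 8.04, 11.1, 10.2, 10.5 and 8.42 CPM in PM2.5, a log2 fold change of 0.17 with overlap, and Ifit3 was level at 33.7 ± 3.51 and 33.6 ± 3.49 CPM (SD, n = 5 each). Rsad2 had 37.3, 71.6, 17.5, 59.2 and 101 CPM in air and 30.3, 74.6, 66.6, 57.7 and 86.7 CPM in PM2.5. Its lowest library, air 3, and its highest, air 5, were both in the air group, and the log2 fold change was 0.15 with an interval of -0.70 to 1.01, turning to -0.09 without air library 3. Isg20 had 17.3, 32.1, 15.5, 39.6 and 42.2 CPM in air and 33.6, 33.7, 41.3, 30.9 and 47.1 CPM in PM2.5. Air libraries 1 and 3 were the low ones, the other 8 lay between 30.9 and 47.1 CPM, and the log2 fold change was 0.36 (SE 0.264).

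The other roles were as narrow. The Oas genes lay between -0.19 for Oas2 and 0.14 for Oasl2 on the log2 scale, both Mx genes and both of Irf9 and Stat2 between -0.10 and -0.05, and the guanylate-binding proteins between -0.14 and 0.05. Isg15 had 0.15 and Usp18 -0.14. Cxcl10, with groups apart in spleen, had 13.5, 14.4, 14.2, 10.8 and 11.9 CPM in macrophage air and 13.6, 12.2, 9.85, 15.2 and 10.1 CPM in macrophage PM2.5, fully overlapping. Ifi35 had 41.5, 41.7, 38, 43.7 and 37.8 and 56.5, 40, 38.1, 43.4 and 42.3 CPM, with PM2.5 library 1 highest. That library is the one whose labels conflict. With it counted as air, or left out, no member passed the test in macrophages. Counted as air, it turned the members' median from -0.05 to 0.01 (19 higher and 17 lower) and Ifi35 from 0.12 to -0.09 on the log2 scale, and left Parp14 at -0.00338. The sign turned in at least 1 of 20 alternatives in 15 of the 36 members. Markers of other cells moved with the exposure here as well: 7 of 7 tested neutrophil markers (30.6 to 81.9 CPM summed in air, 51.6 to 186 CPM in PM2.5), 6 of 6 plasma cell markers (639.5 to 2129.5 CPM and 1269 to 4379.5 CPM), 7 of 7 B cell markers and 7 of 8 T cell markers were higher on average, and 9 of 10 red pulp macrophage markers (16591 to 23257 CPM and 14156 to 20164 CPM) and 6 of 7 dendritic cell markers were lower. None passed the adjusted threshold, none of these markers was at 0 in every library, and their part in the members' levels was not tested.

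**Figure D3:**
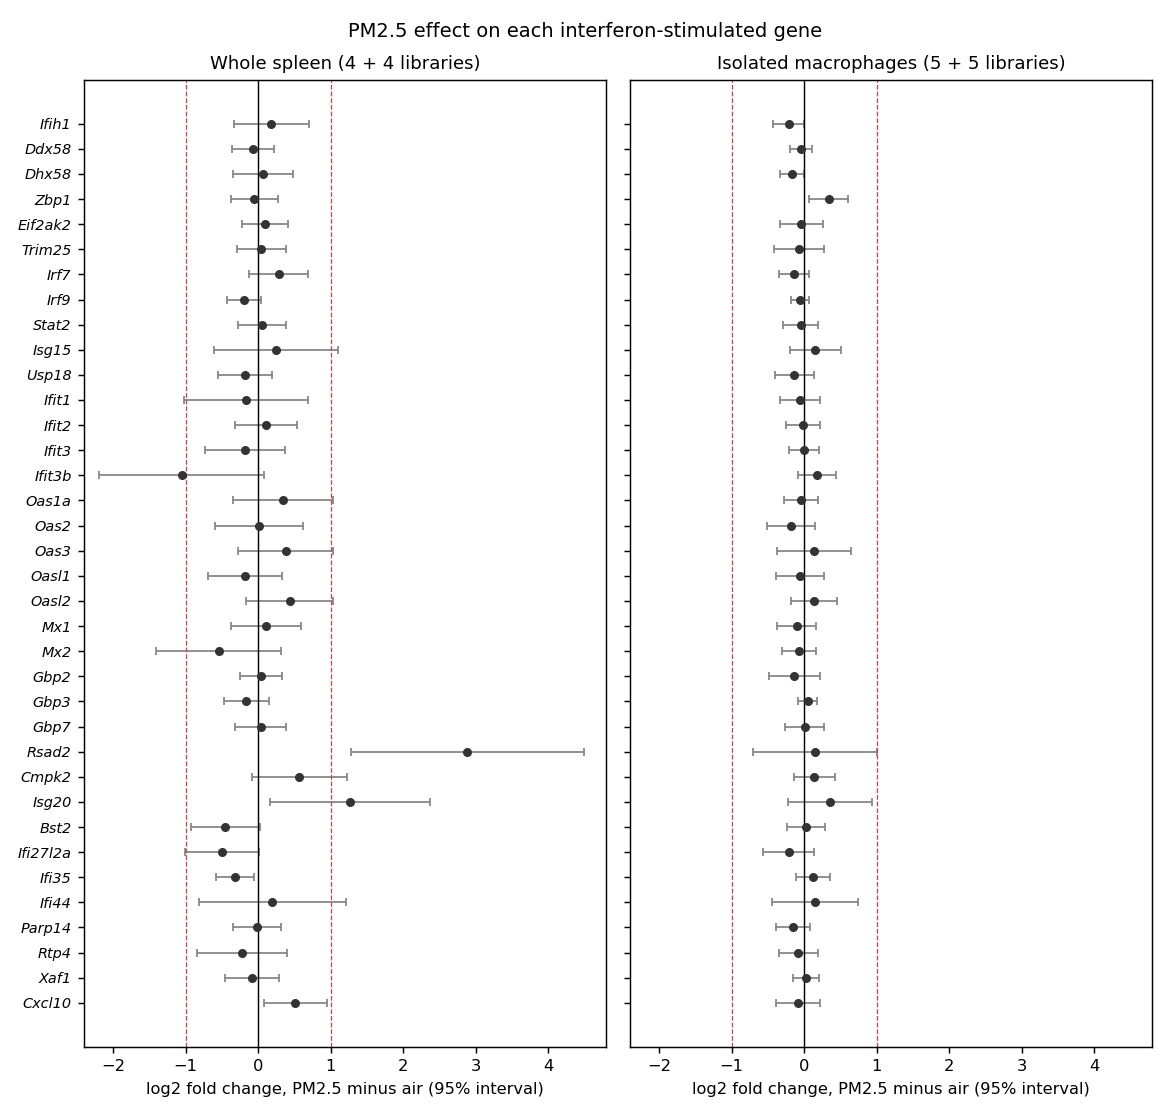
Log2 fold change of PM2.5 minus air for each member (points) with approximate 95% intervals (bars), in whole spleen (left, 4 and 4 libraries) and isolated macrophages (right, 5 and 5 libraries); dashed lines mark a 2-fold change. Intervals are wider in spleen, where 24 members lie within the dashed lines, than in macrophages, where 35 do.

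Across the isolated macrophage libraries the erythroid markers and several members also varied together within groups, where the 10 erythroid markers had a median log2 fold change of 0.13 between PM2.5 and air. The erythroid markers summed to 2674 to 9166 CPM in macrophage air and 4599 to 7787 CPM in macrophage PM2.5. Rsad2 had a Pearson r of deviations of 0.944 and a Spearman rho of 0.927 over 10 libraries (exact permutation p = 0.000417, adjusted over 72 relations 0.0283), and 0.827 without air libraries 1 and 3. Isg20 had 0.92 and 0.952 (exact permutation p = 0.00118, adjusted 0.0283), and 0.757 without them. Oas3, the largest of the oligoadenylate synthetases, had 0.84 and 0.806 (exact permutation p = 0.000833, adjusted 0.0283), and 0.807 without them. Isg15 had 0.921 and 0.939 (exact permutation p = 0.00264, adjusted 0.0475), and 0.604 without them. These 4 were the relations under 0.05 after adjustment, all in macrophages. Rsad2 and Isg20 were the 2 members with r of at least 0.8 in both experiments. Oas3 had 0.314 in spleen. Over the 10 macrophage libraries r was over 0.5 in 15 members. It was under -0.5 in 3 members, Gbp2 (-0.654), Cxcl10 (-0.552) and Gbp3 (-0.52).

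**Figure D4:**
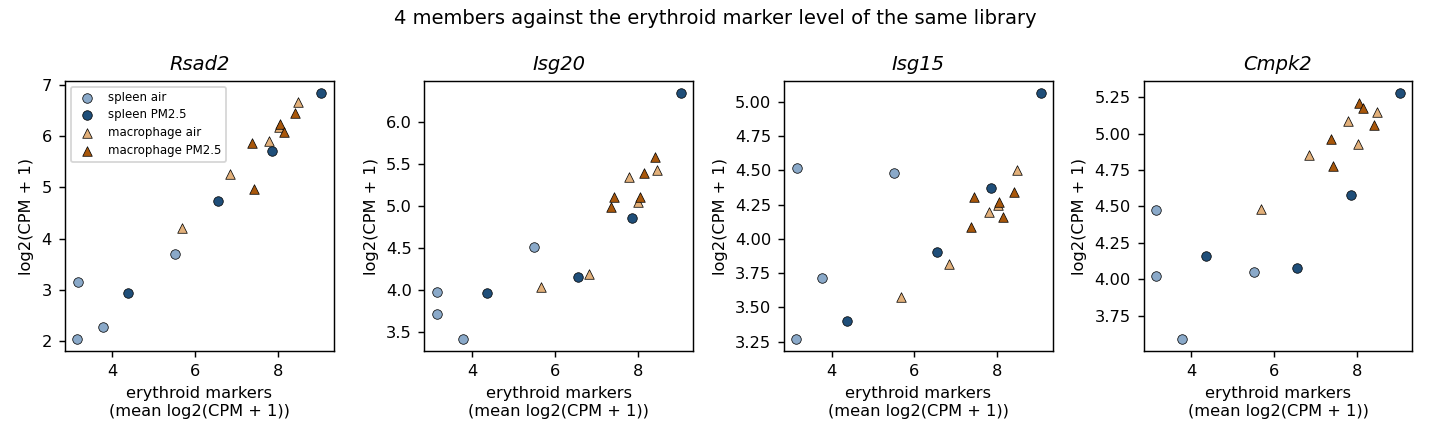
Log2(CPM + 1) of Rsad2, Isg20, Isg15 and Cmpk2 against the mean log2(CPM + 1) of 10 erythroid markers, 1 point per library (circles spleen, triangles macrophages, pale air, dark PM2.5). Rsad2 runs along a line over both materials, with spleen PM2.5 library 2 at the top right and the spleen air libraries at the lower left.

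The PM2.5 effects in the 2 experiments were compared directly in a joint fit of all 18 libraries. Material, isolation, experiment and the period of filtered air after exposure in the second experiment cannot be told apart in this difference. No member passed the threshold for the difference (edgeR quasi-likelihood test, Benjamini-Hochberg), where 1.46% of the 17779 genes tested did, 0.416% higher and 1.04% lower. At an unadjusted p under 0.05 there were 5 members, Rsad2, Cxcl10 and Irf7 with a negative difference, macrophage minus spleen, and Ifi35 and Ifit3b with a positive one, where 20.6% of all genes were under it. DESeq2 called 1 member, Rsad2, and limma-voom none. In all of these but Rsad2 the fold changes of the 2 experiments had opposite signs. The difference was -2.73 for Rsad2 (SE 0.849, interval -4.51 to -0.95, edgeR adjusted p = 0.0899). It was -0.61 for Cxcl10 (SE 0.233, edgeR adjusted p = 0.153), 0.43 for Ifi35 (SE 0.161, edgeR adjusted p = 0.14) and 1.23 for Ifit3b (SE 0.493, edgeR adjusted p = 0.169). Rsad2 passed with DESeq2 (adjusted p = 0.0477) and without spleen PM2.5 library 1 (0.0388), and Ifit3b without spleen air library 4 (0.0426). Some other omissions made the differences larger, with -3.14 for Rsad2 and -0.75 for Cxcl10 without spleen air library 1. Others made the difference smaller. For Rsad2 it was -1.90 without spleen PM2.5 library 2 and -1.12 without PM2.5 libraries 2 and 4 (adjusted p = 0.161 and 0.458). For Ifit3b it was 0.64 without spleen air library 3 (0.408), for Cxcl10 -0.33 without both air libraries with liver transcripts (0.481), and for Ifi35 0.24 with macrophage PM2.5 library 1 counted as air (0.557). Over all members the median difference was -0.10 beside -0.03 over all genes. The interval of 26 members lay within 2-fold, as it did for 48.4% of all genes. The median was 0.00660 without both libraries with liver transcripts, 0.01 without spleen PM2.5 libraries 2 and 4, and 0.04 with macrophage PM2.5 library 1 counted as air.

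The resting level of the members differed between the materials. Against whole spleen air, macrophage air libraries had 20 members higher and 7 lower past the threshold (edgeR quasi-likelihood test, Benjamini-Hochberg), 27 of 36, where 66.5% of the 17779 genes tested passed, 33.3% in each direction. At an unadjusted p under 0.05 there were 29 members, beside 69.5% of all genes. Libraries of the 2 materials did not overlap in 17 members higher and 5 lower in macrophages, where 29.9% and 26.3% of all genes did not, 56.2% together. The median log2 fold change was 0.52 over the members and 0.00 over all genes. A list of other interferon-stimulated genes, described below, did not share this. Of its 66 genes tested, 29 were higher and 37 lower in macrophages, with a median of -0.20. Past the threshold were 25 higher and 28 lower. Isolation, cell content and experiment cannot be told apart in this comparison. Upper-quartile scaling moved the median of all genes to -0.29 and that of the members to 0.23, a gap of 0.52, and then called 14 higher and 9 lower; Isg20 and Ifit3b were among those no longer called. The plot of the air groups orders the members by this difference.

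The widest differences were in Rsad2 and Ifih1. Rsad2 had 57.3 ± 31.9 CPM in macrophage air (SD, n = 5) and 6.74 ± 4.12 CPM in spleen air (SD, n = 4), with every macrophage library above every spleen air library (log2 fold change 3.09, SE 0.661, edgeR adjusted p = 0.000438). Ifih1 had 92 ± 11.4 and 14.4 ± 4.95 CPM, again without overlap (log2 fold change 2.68, SE 0.182, edgeR adjusted p = 2.70e-10). Ifi44, a cytoplasmic protein gene of little known function, had 5.3, 7.67, 3.35, 7.61 and 8.24 CPM in macrophage air and 3.01, 0.961, 1.7 and 1.32 CPM in spleen air, apart but at a low level (log2 fold change 1.88, edgeR adjusted p = 0.000192). Oas1a had 30.1, 37.6, 27.6, 36.5 and 35.9 CPM in macrophage air and 19.2, 10.3, 8.94 and 7.96 CPM in spleen air, with no overlap (log2 fold change 1.53, edgeR adjusted p = 1.56e-05). Of its 50-base words 57.6% also occur in Oas1g, so its count is uncertain.

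Sensors and transcription factors were mostly higher in macrophages. Dhx58, Eif2ak2 (PKR), Trim25, Irf7 and Stat2 were higher by 1.05, 1.23, 0.85, 1.19 and 0.68 on the log2 scale, while Ddx58 and Irf9 had 0.01 and -0.04 and did not pass. Zbp1 was lower in macrophages, with 42.9, 45.1, 50.2 and 37.9 CPM in spleen air, above every macrophage air library (log2 fold change -0.84, SE 0.14, edgeR adjusted p = 3.72e-05). All 3 guanylate-binding proteins were higher, from 0.43 for Gbp7 to 0.64 for Gbp2, and so were the nucleotide and RNA enzymes Cmpk2 (0.89) and Isg20 (1.0, edgeR adjusted p = 0.0444). Isg20 was called in 7 of 18 alternatives: it was lost without any of spleen air 2, 3 or 4 or macrophage air 2, 4 or 5, without both libraries with liver transcripts, with limma-voom, in the robust fit, under the filter of 1 CPM and under upper-quartile scaling (adjusted p = 0.0504 to 0.254). Gbp7 was lost without spleen air 2, without both libraries with liver transcripts and under upper-quartile scaling (adjusted p = 0.09 to 0.419). Parp14, Oas2, Ifit3, Ifit3b, Mx1 and Xaf1 were the other members called higher, by 0.88, 0.92, 0.88, 0.95, 0.84 and 0.31, and Ifit3b was lost without spleen air 1 or 2 or macrophage air 3 (adjusted p = 0.0523 to 0.0838). The log2 fold change of Ifit3b was 1.5 without spleen air 3 and 0.60 without spleen air 4. Xaf1 was called in 7 of 18 alternatives, was lost without any 1 of 8 of the 9 air libraries, spleen air 3 being the exception, and was 0.02 under upper-quartile scaling (adjusted p = 0.0536 to 0.913 where lost). Of the 27 members called, 19 were called in all 18 alternatives and none changed sign.

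Members of the same family did not all differ the same way. Ifit1 was lower in macrophages, with 7.81, 7.67, 7.38, 6.27 and 8.42 CPM there and 17.4, 7.83, 26.6 and 9.39 CPM in spleen air, while Ifit3 had 31.5, 29.8, 33.5, 34.9 and 39 and 23.8, 11.8, 23.7 and 14.2 CPM and Ifit2 was level (log2 fold changes -1.03, 0.88 and 0.03). Oasl1, an Oas relative without enzyme activity, had -0.68 on the log2 scale where Oas1a and Oas2 were higher. Bst2, Ifi35, Ifi27l2a and Usp18 were the other members called lower, with -0.91, -0.85, -0.62 and -0.42. Ifi27l2a was lost without spleen air 1 (adjusted p = 0.0655). The markers of plasmacytoid dendritic cells were lower too, 9 of 10 on average with sums of 545 to 727 CPM in macrophage air, and Siglech had 6.9 ± 1.53 CPM there and 33.9 ± 9.86 CPM in spleen air; their part in the level of Bst2 was not tested. Isg15, Cxcl10, Oas3, Oasl2, Mx2 and Rtp4 did not pass, with 0.01, 0.33, 0.41, 0.50, 0.37 and 0.47 on the log2 scale.

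**Figure D5:**
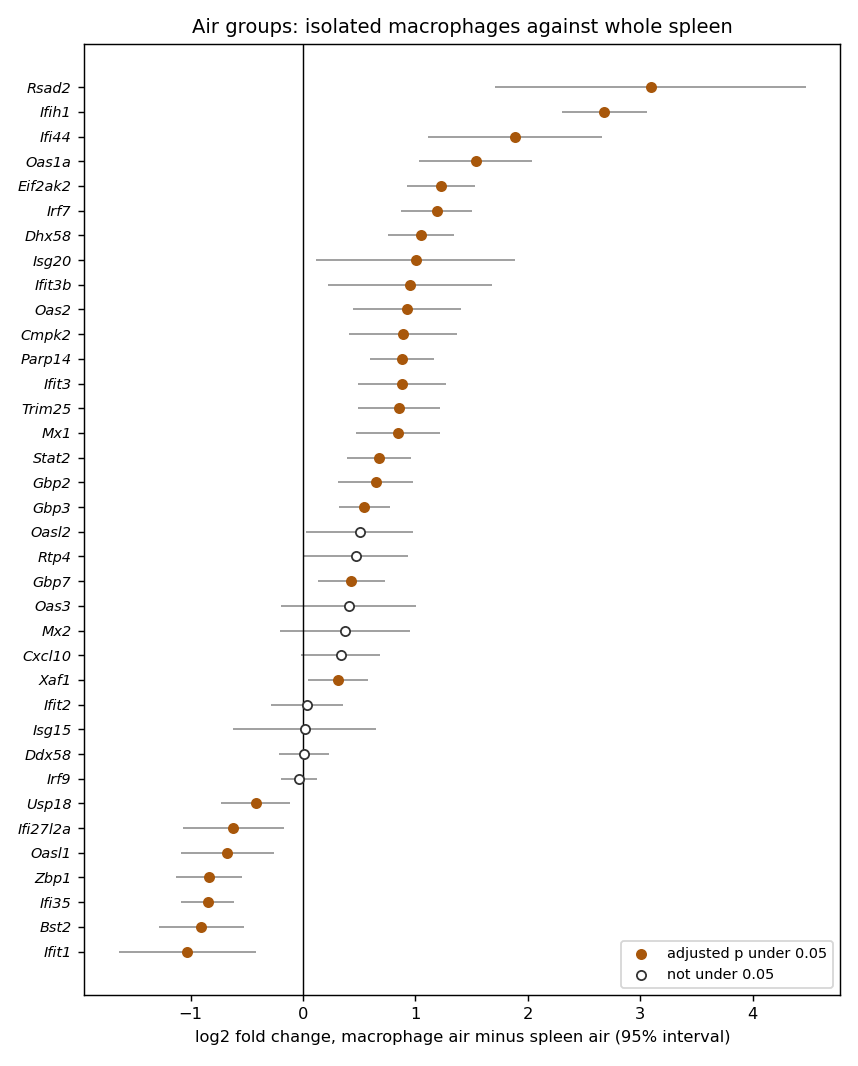
Log2 fold change of macrophage air minus spleen air for each member (points) with 95% intervals (lines), sorted by size; filled points passed an adjusted p of 0.05 and open points did not. Rsad2 and Ifih1 lie farthest right, and 7 filled points lie left of zero, from Usp18 to Ifit1.

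Within groups the members varied together only in part. The median Pearson r between pairs of members, taken on deviations from group means, was 0.36 over the 8 spleen libraries and 0.25 over the 10 macrophage libraries. Against the median of the other members, 23 members had r over 0.5 in spleen and 19 in macrophages. In spleen the closest were Mx1 (0.951), Oasl2 (0.897), Ifi27l2a (0.887) and Rtp4 (0.886), while Isg20 (-0.00760), Cmpk2 (0.00753) and Rsad2 (0.130) did not follow the rest. In macrophages Xaf1 (0.850), Cmpk2 (0.839) and Eif2ak2 (0.814) were closest and Ifi35 (-0.481) farthest. Members read in the same library share its depth and cell content, and both differ between libraries. Spleen air 1 held the highest library value of its group in 25 of 36 members and spleen air 4 the lowest in 19. Spleen PM2.5 2, the library highest in Rsad2 and Isg20, held the lowest value of its group in 24 members, and PM2.5 4 the highest in 21.

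Over the 18 libraries the 8 genes outside the members whose deviations were most like the members' median were Trim30d (r = 0.871), Piwil2 (0.844), Ppp1r9a (0.833), Cryab (0.831), Mmp3 (0.827), Klhl13 (0.815), Gucy1a1 (0.815) and Wdr47 (0.814), none of them in the lists of interferon genes used here. The list of feedback inhibitors does hold Trim30a, whose symbol is of the same series as Trim30d. All 8 genes were picked as the highest of all genes and carry no test.

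The genes around the members in the pathway were read from lists of ligands, receptors, factors, sensors, inhibitors and other responsive genes. Of 21 interferon genes only Ifng, the ligand of the type II receptor, passed the filter, with 1.1 ± 0.565 CPM in spleen air and 1.4 ± 0.445 CPM in macrophage air. Ifnb1 had 0 counts in the spleen groups and macrophage air and 3 in macrophage PM2.5, and most Ifna genes had 0 in every group. Receptors were well read. Ifnar1 had 63.2, 95.8, 79.3 and 80.2 CPM in spleen air and 95.1, 87.6, 81 and 87.1 CPM in spleen PM2.5, and 128, 133, 141, 125 and 125 and 92, 127, 119, 114 and 125 CPM in the macrophage groups, overlapping in both (log2 fold changes 0.14 and -0.17). Ifnar2 had -0.11 and -0.13, and Ifngr1 0.08 and -0.10. Irf1, a factor induced by both interferon types, had -0.27 and 0.04. Of 12 sensing genes upstream of interferon, 8 were higher and 4 lower in spleen, and 1 higher and 11 lower in macrophages. In macrophages 2 were lower under an unadjusted edgeR p of 0.05 (16.7%), beside 4.61% of all genes. Of 9 receptors and kinases, 5 were higher and 4 lower in spleen, and 1 higher and 8 lower in macrophages. Groups were apart in 1 of these in macrophages, lower (11.1%), beside 0.86% of all genes. None of the 101 pathway genes tested in spleen and of the 102 in macrophages passed the threshold (edgeR quasi-likelihood test); 16 (15.8%) and 11 (10.8%) were under an unadjusted p of 0.05, beside 16.7% and 10.9% of all genes.

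Among the 65 other interferon-stimulated genes tested in spleen, 28 were higher and 37 lower. Under an unadjusted p of 0.05 there were 3 higher (4.62%) and 12 lower (18.5%), beside 8.93% and 7.76% of all genes. Groups were apart in 2 higher (3.08%) and 7 lower (10.8%), beside 4.31% and 4.66%. Psmb8, a subunit of the immunoproteasome, had 352, 299, 342 and 348 CPM in spleen air and 258, 244, 261 and 228 CPM in spleen PM2.5, with all PM2.5 libraries lower (log2 fold change -0.44, SE 0.109, edgeR adjusted p = 0.126). Slfn2, which keeps lymphocytes quiescent, had 379, 285, 416 and 364 and 247, 256, 273 and 282 CPM, again all lower (log2 fold change -0.45, edgeR adjusted p = 0.142). Epsti1 had 204, 135, 227 and 168 and 125, 135, 130.5 and 123 CPM, again all lower, by a narrow gap at air library 2 (log2 fold change -0.52, edgeR adjusted p = 0.147). Slfn4, a myeloid relative of Slfn2, went the other way at a very low level, with 0.301, 0.192, 0.284 and 0 and 0.501, 0.912, 1.08 and 3.78 CPM (log2 fold change 2.96, edgeR adjusted p = 0.147). B and T cell markers were lower in the same spleen libraries, with the sums given above.

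In macrophages, 40 of 66 of these genes were higher and 26 lower. Under an unadjusted p of 0.05 there were 7 higher (10.6%) and 1 lower (1.52%), beside 6.24% and 4.61% of all genes. Socs3, a feedback inhibitor of cytokine receptors, had the smallest p of the pathway genes, with 38.8, 33.3, 31.4, 33.7 and 30.9 CPM in air and 47.2, 47.7, 39.1, 38.5 and 44 CPM in PM2.5, overlapping at air library 1 (log2 fold change 0.37, SE 0.0908, edgeR adjusted p = 0.258). Ly6a, the antigen Sca-1, had 63.9, 78, 47.8, 103 and 49.3 and 154, 79.9, 94.1, 137 and 97.2 CPM (log2 fold change 0.72, edgeR adjusted p = 0.334). Irgm1, a GTPase of autophagy, had 0.23 and Tor3a -0.25 (edgeR adjusted p = 0.353 and 0.312). Ifitm3, which blocks virus entry, had 0.12 in spleen and 0.01 in macrophages. As with the members, none passed the test.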

How the data were processed

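Polyadenylated RNA was sequenced from 8 whole spleens and 10 preparations of spleen macrophages. The deposited values are raw counts, unscaled whole reads assigned by the authors to each Ensembl gene. The submitters' processing notes name HTSeq 0.10.0, FastQC 0.10.1 and the builds GRCm38 and mm10. Of the aligner, the annotation and the strand setting, none is given in the sources used here. Of 55414 identifiers, 52081 matched a symbol in GENCODE M21, and the rest carried 0.343% of reads.

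Models were fitted with edgeR 4.0.16 under R 4.3.3. Genes passed filterByExpr (at least 10 counts, total of at least 15), scaling was TMM, and the quasi-likelihood test compared group means with Benjamini-Hochberg adjustment over all genes tested and a threshold of 0.05. Each experiment had its own fit. The difference of the effects and the air contrast came from a joint fit of all 18 libraries. CPM used TMM sizes over all 18 libraries, per-kilobase levels the summed exon length in GENCODE M21, and logs a pseudocount of 1. Intervals are at 95%, from the fold change and its SE. Relations with erythroid markers were tested by exact permutation within groups. Alternatives were other scalings and filters, DESeq2 1.42.0, limma-voom 3.58.1, a robust fit, a threshold of 0.1, a replicate block and the omission of libraries. The steps were tested on simulated data.

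The members, the lists and the alternatives were chosen with earlier results of these data known. Values in every library are given for the 6 members of smallest p per PM2.5 comparison, the 4 of smallest p for the difference, the 4 of largest difference between the air groups, the 3 with the highest single library, and Ifit3 beside Ifit3b. Cmpk2 and Isg15 were named after their values were seen. Of the pathway lists, the 4 genes of smallest p per comparison and a preset list were named.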

Additional observations from a re-analysis of the deposited data

Results flagged for a closer look

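The members named with values in every library, and the median deviation of all members, were searched in each group for a library far from the rest. There were 72 searches in all, and 3 values stood out. Dhx58 had 37.1 CPM in macrophage air library 3, below the next lowest library at 42.6 CPM. Ifi35 had 56.5 CPM in macrophage PM2.5 library 1, above the next highest at 43.4 CPM. The median deviation of the members from their group means was -0.119 on the log2 scale in macrophage air library 3, below the next lowest library at 0.0327. Chance alone flags about 1 in 20 such searches.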

How the results depend on the processing

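In spleen, members called were 0, and 1, Rsad2, with DESeq2, with no filter on low counts and in the joint fit, and 0 to 1 when each library was left out in turn. Genes called in all were 2, and 1 with DESeq2 size factors or limma-voom, 830 with DESeq2, 461 with no filter, 12 under a filter of 1 CPM in all libraries of a group, 1050 in the joint fit, 62 at a threshold of 0.1, 0 without air 3 and 4 together (liver transcripts) or without PM2.5 2 and 4 together (most erythroid transcripts), and 0 (without air 3, or PM2.5 2, 3 or 4) to 219 (without air 2) when each library was left out, with 136 without PM2.5 1. In macrophages, members called were 0 in every alternative run, and genes called were 0, 175 with DESeq2, 1 with no filter, and 0 to 17 (without air 4) when each library was left out. For the difference, members called were 0, and 1, Rsad2, with DESeq2 and at a threshold of 0.1, and 0 to 1 when each library was left out. Genes called were 259, 1044 with DESeq2, 3 with limma-voom, 9 without both liver libraries, 48 without both erythroid libraries, 87 with macrophage PM2.5 library 1 counted as air, 1102 at a threshold of 0.1, and 68 (without spleen air 3) to 1317 (without spleen air 2) when each library was left out. In the air comparison 27 members were called and 23 to 27 when each library was left out, and the members' median of 0.52 was 0.23 under upper-quartile scaling. The cause of these shifts was not tested. Of the 27 members called in the air comparison, 8 lost the call in at least 1 of 18 alternatives (Isg20 and Xaf1 in 11 each, Ifit3b in 4, Gbp7 in 3, and Gbp2, Gbp3, Usp18 and Ifi27l2a in 1 each), and none changed sign. Among members not called, the sign turned in at least 1 alternative for 19 in spleen, 15 in macrophages, 17 for the difference and 4 in the air comparison.

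With a replicate block, members called were 0 in both PM2.5 comparisons and for the difference, and genes called were 3 in spleen, 0 in macrophages and 91 for the difference. Equal numbers gave no clear pairing of the libraries. Same-numbered libraries correlated at -0.154 to 0.0847 in spleen, with 0 of 4 matching their own number best. In macrophages they correlated at -0.160 to 0.360, with 2 of 5. Such correlations cannot show that the libraries were unpaired. In the air comparison the block could not be fitted.

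With 4 or 5 libraries a group, small changes could not be detected. The printed intervals are per gene and not adjusted for the number of genes tested, so they do not mark the limit of detection. In spleen the interval of Rsad2, 1.28 to 4.49 on the log2 scale, lay wholly above no change. The main fit still did not call Rsad2. Ifi44, Ifit3b and Mx2 in spleen rest on few reads, and counting error adds to the spread between libraries there.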

Other observations

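Members with and without the letters of the ISRE core in the window around their start differed little from each other after PM2.5. The window ran from 250 bases before to 50 after the start, and the only match of Ifih1, Ddx58 and Eif2ak2 lay after it. In spleen the 16 members with a match had 10 higher and 6 lower (median 0.04 on the log2 scale), and the 11 without had 7 and 4 (median 0.11). In macrophages the medians were -0.02 and 0.02. Between the air groups they were 0.59, with 14 higher and 2 lower in macrophages, and 0.50, with 8 and 3. Neither Isg20 nor Cmpk2 had a match in the window, while Rsad2, the neighbour of Cmpk2, had 1. These are counts with no test, over windows chosen by annotated start alone.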
